A study of Mus musculus with 6 samples.

Results

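The genes described here encode parts of the centriole, of the basal body that a centriole becomes when it docks at the cell surface, and of the transition zone at the base of the cilium. They are 34 listed symbols, all of which were found among the 21225 genes of the deposited table. The list was drawn up by the known roles of the proteins, with earlier results of these data known. The arrays measured RNA of the whole lung from C57BL/6 mouse embryos at E18.5, with 3 control and 3 RbpjkCNULL lungs and 1 Affymetrix Mouse Gene 1.0 ST array per lung. The RbpjkCNULL lungs carried Shh-cre on 1 allele and floxed Rbpjk on both, so that Cre expressed from the Shh locus in the epithelium removes Rbpjk, the transcription factor of canonical Notch signaling. The labels of the controls disagree, since the source field names Shh-cre heterozygotes and the genotype field names wildtype, and they are called controls. Both groups were dissected at or below the carina. Airway epithelium, mesenchyme, vessels and blood were therefore measured together, and more cells of a type cannot be told apart from more RNA per cell. The study made these arrays to find genes of Clara cells (CCs). The comparison of centriole and ciliary gate genes asks how the machinery at the base of the cilium differed between the same lungs.

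Centrioles are barrels of microtubules. In a cycling cell each of the pair templates 1 new centriole per S phase, a step started by the kinase Plk4 with Stil and the cartwheel protein Sass6. When a cell stops dividing, the older centriole loses its cap, docks at the plasma membrane through its distal appendages and nucleates a cilium. The transition zone then forms above it as a gate of linked Nphp, Mks and Tctn proteins that controls what enters the cilium. Multiciliated cells of the airway make a large number of centrioles without dividing, many of them around deuterosomes, and use much of the same machinery.

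The groups were compared gene by gene in limma, whose linear models borrow information on variance from one gene to another, with Benjamini-Hochberg adjustment over all 21225 genes. Values are log2 expression values normalized by RMA, differences are RbpjkCNULL minus control, and the words rose and fell are kept for an adjusted p under 0.05. The labels give separate lungs but do not say whether embryos shared a litter. The p values set each difference against the spread between these lungs, with information on variance borrowed over genes. The 6 arrays had medians of 6.43 to 6.50. Their lower quartiles were 5.03 to 5.11 for control replicates 1 and 3 and RbpjkCNULL replicate 1 and 4.87 to 4.89 for the other arrays. Rbpj had values of 6.45, 6.50 and 6.74 in controls against 6.26, 6.17 and 6.18 in RbpjkCNULL lungs, without overlap (log2 fold change -0.36, standard error 0.09, adjusted p = 0.21 from limma). Xist, the RNA that coats the silenced X chromosome in female cells, was at 10.5 and 10.7 in control replicates 1 and 2 and between 4.13 and 4.91 in the other lungs, so that the sex of the embryos also differed between the groups. Most of a list of 25 measured genes, called axonemal genes here, encode parts of the motile axoneme and mark multiciliated cells. It also holds the dynein arm assembly factors Lrrc6 and Zmynd10 and the transport genes Ift88 and Ift172. Of the 25 genes, 20 rose and 0 fell, against 1.16% and 0.113% of all genes, and 7 of 7 CC markers fell. Except for Scgb3a1, these markers were selected by the study as lower on these same arrays, so their fall is not a separate check.

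Of the 34 genes, 1 rose and 0 fell. Over all genes 1.16% rose and 0.113% fell. The gene that rose was Cetn2, a centrin of the centriole lumen. The 12 genes whose RbpjkCNULL lungs all lay above all control lungs were Cep135, Cetn2, Ccp110, Cep83, Cep290, Rpgrip1l, Tmem67, Tmem216, Tctn2, Mks1, B9d1 and Cc2d2a, against 4.95% of all genes. For 0 of the 34 did they all lie below, against 9.28%. At an unadjusted p under 0.05, 10 of the 34 were higher and 0 lower, where 3.56% and 4.97% of all genes were. The difference was above 0 for 26 genes and below 0 for 8, with a median of 0.12 beside a median of -0.05 over all genes. It ran from -0.20 for Cenpj to 0.51 for Cetn2. Differences of this size were small next to those of the axonemal genes, whose median was 0.89.

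**Figure D1:**
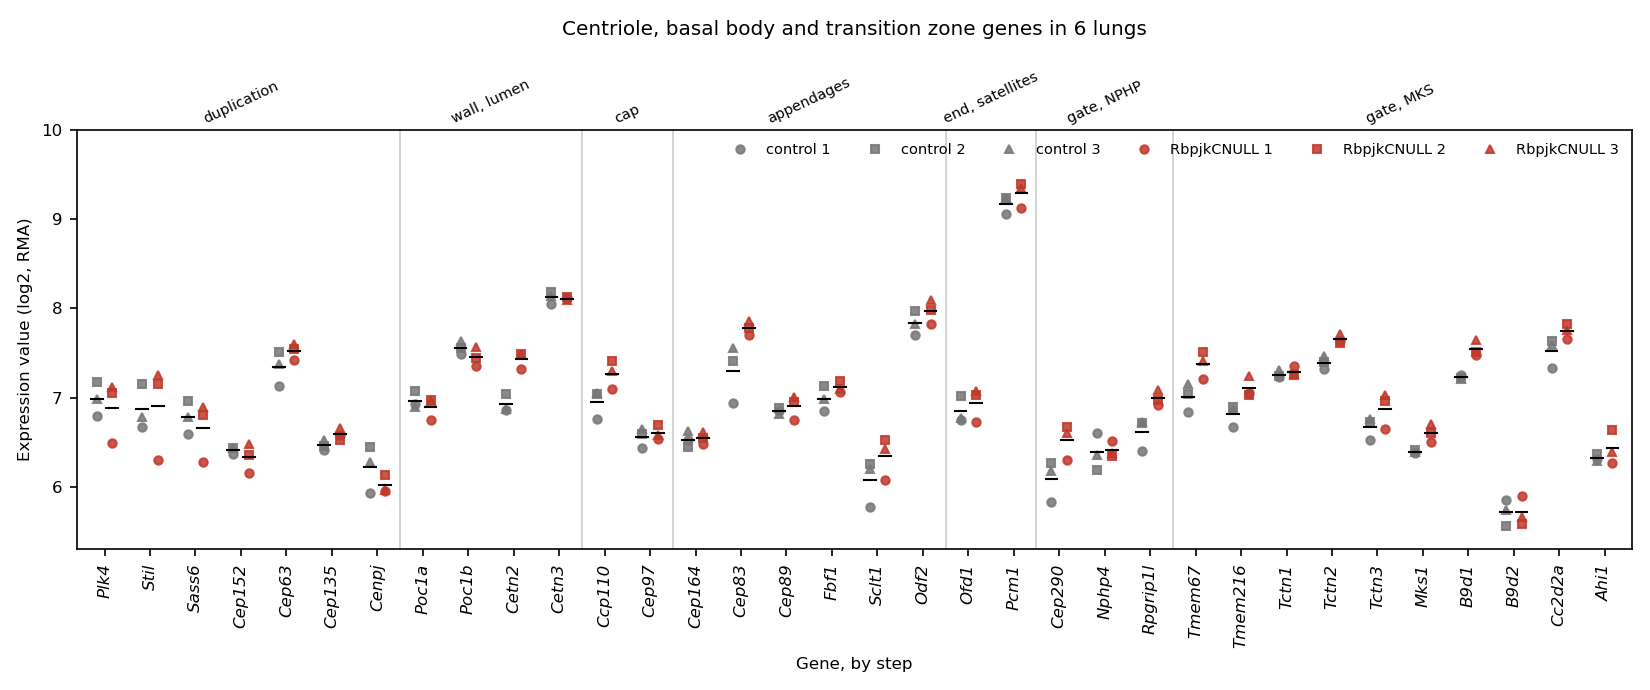
Expression values (log2, RMA) of the 34 genes in each of 6 lungs, by step. Grey marks are control and red marks RbpjkCNULL lungs, circles, squares and triangles are replicates 1, 2 and 3, and black bars are group means. The groups of Cetn2, the gene that rose, stand apart, and Plk4, Stil and Sass6 are lowest in RbpjkCNULL replicate 1.

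The 7 genes of centriole duplication did not differ in a common direction. 0 of 7 passed the test in either direction, 3 were above 0 and 4 below, and their median log2 fold change was -0.08. Plk4, the kinase that starts duplication, had values of 6.80, 7.18 and 6.99 in controls against 6.49, 7.05 and 7.12 in RbpjkCNULL lungs. The groups overlapped, and RbpjkCNULL replicate 1 was the lowest of the 6 lungs. The difference was -0.10 (standard error 0.18, adjusted p = 0.89 from limma), with a 95% interval from -0.52 to 0.31.
Stil, the scaffold that Plk4 phosphorylates, had values of 6.67, 7.15 and 6.78 in controls against 6.30, 7.15 and 7.25 in RbpjkCNULL lungs. Here too RbpjkCNULL replicate 1 was lowest while the other RbpjkCNULL lungs were at or above the highest control, and the difference of 0.03 (standard error 0.25, adjusted p = 0.976) had an interval from -0.56 to 0.62. Sass6, which builds the hub of the cartwheel, was also lowest in RbpjkCNULL replicate 1, with 6.59, 6.96 and 6.79 in controls against 6.27, 6.81 and 6.89 in RbpjkCNULL lungs. Its difference was -0.12 (0.17, adjusted p = 0.864), with an interval from -0.52 to 0.28.
Cenpj, which sets the length of the new centriole, had the lowest difference of all 34 genes, -0.20 (0.13, adjusted p = 0.731). Its values were 5.92, 6.45 and 6.27 in controls against 5.95, 6.13 and 5.97 in RbpjkCNULL lungs. Control replicate 1 lay below all RbpjkCNULL lungs, so the groups overlapped. Cep63, which recruits Cep152 to the parent centriole, had the highest difference of the step, 0.18 (0.11, adjusted p = 0.707), with values of 7.13, 7.51 and 7.37 in controls against 7.42, 7.54 and 7.60 in RbpjkCNULL lungs. Cep152, the docking platform of Plk4, differed by -0.08 (0.10). Cep135, a cartwheel and wall protein, differed by 0.12 (0.07, adjusted p = 0.694) and was the gene of this step whose groups did not overlap. The gap was very small, with the highest control, replicate 3, at 6.5261 and the lowest RbpjkCNULL lung, replicate 2, at 6.5272.

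Lungs of the same genotype differed in their duplication genes. With each gene set to its mean over the 6 lungs, their median deviation was -0.14, 0.24 and 0.05 in controls against -0.22, 0.09 and 0.17 in RbpjkCNULL lungs. Both lungs numbered 1 were low and control replicate 2 was highest. RbpjkCNULL replicate 1 was the lowest lung for 4 of the 7 genes and control replicate 1 for the other 3.
A list of 30 measured genes of S phase and mitosis, which follow the share of dividing cells, had median deviations of 0.01, 0.34 and 0.05 in controls against -0.54, 0.05 and 0.06 in RbpjkCNULL lungs. RbpjkCNULL replicate 1 was the lowest lung for 29 of these 30 genes and control replicate 2 the highest for 30 of 30. Their summed level, on the linear scale, was 6552 to 8274 in the control lungs and 4510 to 6773 in the RbpjkCNULL lungs. All 30 had differences below 0, as did 14460 of all 21225 genes, and their median was -0.27. Yet 0 passed the test, and at an unadjusted p under 0.05 from limma there were 3 lower, against 4.97% of all genes. The largest differences were those of the proliferation antigen Mki67, -0.42 (standard error 0.22, adjusted p = 0.672), and of the spindle motor Kif11, -0.41 (0.27, adjusted p = 0.726). Without RbpjkCNULL replicate 1 these differences were -0.16 for Mki67 and -0.0789 for Kif11. Without the same lung the median of the duplication genes was 0.10 in place of -0.08. The part of cell division in the values of these genes was not tested.

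**Figure D2:**
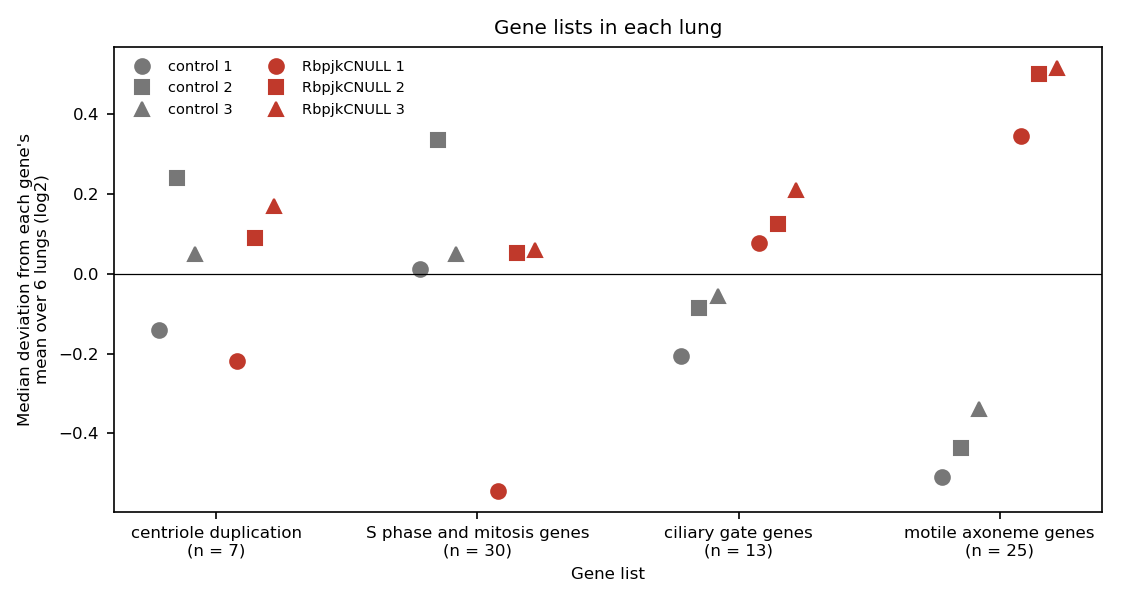
Median deviation of each gene list in each lung (log2), after each gene was set to its mean over 6 lungs. Grey marks are control and red marks RbpjkCNULL lungs, and circles, squares and triangles are replicates 1, 2 and 3. For duplication genes and for S phase and mitosis genes RbpjkCNULL replicate 1 lies lowest, at -0.22 and -0.54, whereas for ciliary gate and axoneme genes the groups are apart.

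Among the genes of the centriole wall and lumen, Cetn2 rose and the others lay near 0. Cetn2, a calcium-binding centrin found in the distal lumen of centrioles and basal bodies, had values of 6.86, 7.04 and 6.87 in controls against 7.32, 7.49 and 7.48 in RbpjkCNULL lungs. Each RbpjkCNULL lung was above each control lung. The group means were 6.92 ± 0.10 and 7.43 ± 0.09 (SD, n = 3 lungs each), and the log2 fold change was 0.51 (standard error 0.08, 1.42-fold higher, adjusted p = 0.0355 from limma). Cetn2 lies on the X chromosome, and its value in control replicate 3, the control lung with low Xist, was between those of the other control lungs.
The call rested on few lungs. It held in 11 of 18 other settings, with a difference between 0.42 and 0.57 in all of them. It was lost by the methods' t-test (adjusted p = 0.201), with the Xist level as a covariate (adjusted p = 0.411), without control replicate 1 or 3 or RbpjkCNULL replicate 2 or 3 (adjusted p = 0.136 to 0.191) and without both arrays numbered 1 (adjusted p = 0.112). The paralog Cetn3 did not share the difference. Its values were 8.06, 8.18 and 8.14 in controls against 8.11, 8.13 and 8.09 in RbpjkCNULL lungs, a difference of -0.02 (0.07, adjusted p = 0.961) with an interval from -0.17 to 0.14.
Poc1a and Poc1b, WD-repeat proteins that stabilise the wall, differed by -0.07 (0.09) and -0.11 (0.08). Poc1b, the lowest of the step, had values of 7.49, 7.56 and 7.63 in controls against 7.36, 7.45 and 7.56 in RbpjkCNULL lungs, and the groups overlapped.

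Ccp110 and Cep97 form the cap that must leave the older centriole before a cilium grows. Ccp110 had values of 6.76, 7.04 and 7.05 in controls against 7.09, 7.41 and 7.29 in RbpjkCNULL lungs. The groups did not overlap, but the gap between them was narrow and the difference of 0.31 (standard error 0.11, adjusted p = 0.478) did not pass. Cep97 had values of 6.43, 6.59 and 6.64 against 6.53, 6.69 and 6.58 and differed by 0.04 (0.09, adjusted p = 0.9).

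The appendages that anchor the basal body all had differences above 0, and 0 of 6 genes passed. Cep83, the first distal appendage protein to be laid down, had the highest difference of the step, 0.48 (standard error 0.15, adjusted p = 0.38). Its values were 6.94, 7.41 and 7.55 in controls against 7.71, 7.79 and 7.85 in RbpjkCNULL lungs. The groups did not overlap, and the spread was in the controls, where replicate 1 was low. Without that lung the difference of Cep83 was 0.30, and with the Xist level as a covariate it was 0.19. Sclt1, which is laid down on Cep83, differed by 0.27 (0.16, adjusted p = 0.707), with control replicate 1 again the lowest lung at 5.77 and the groups overlapping.
Cep164, the outermost of these proteins, had the lowest difference of the step, 0.02 (0.08, adjusted p = 0.959), with values of 6.52, 6.44 and 6.62 in controls against 6.48, 6.55 and 6.62 in RbpjkCNULL lungs. Cep89 differed by 0.05 (0.08) and Fbf1 by 0.13 (0.09), both distal appendage proteins. Odf2, needed for the subdistal appendages, differed by 0.14 (0.10). The 95% interval of Cep83 ran from 0.13 to 0.83 and that of Cep164 from -0.16 to 0.20, and the difference between these genes was not tested.
Ofd1, which limits centriole length and sits at the distal end, and Pcm1, the scaffold of the centriolar satellites, both overlapped between the groups. Ofd1, also on the X chromosome, had values of 6.75, 7.01 and 6.78 against 6.73, 7.03 and 7.08 (difference 0.10, standard error 0.12, adjusted p = 0.837). Pcm1 had values of 9.06, 9.24 and 9.24 against 9.13, 9.40 and 9.35 (difference 0.12, standard error 0.10, adjusted p = 0.774).

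**Figure D3:**
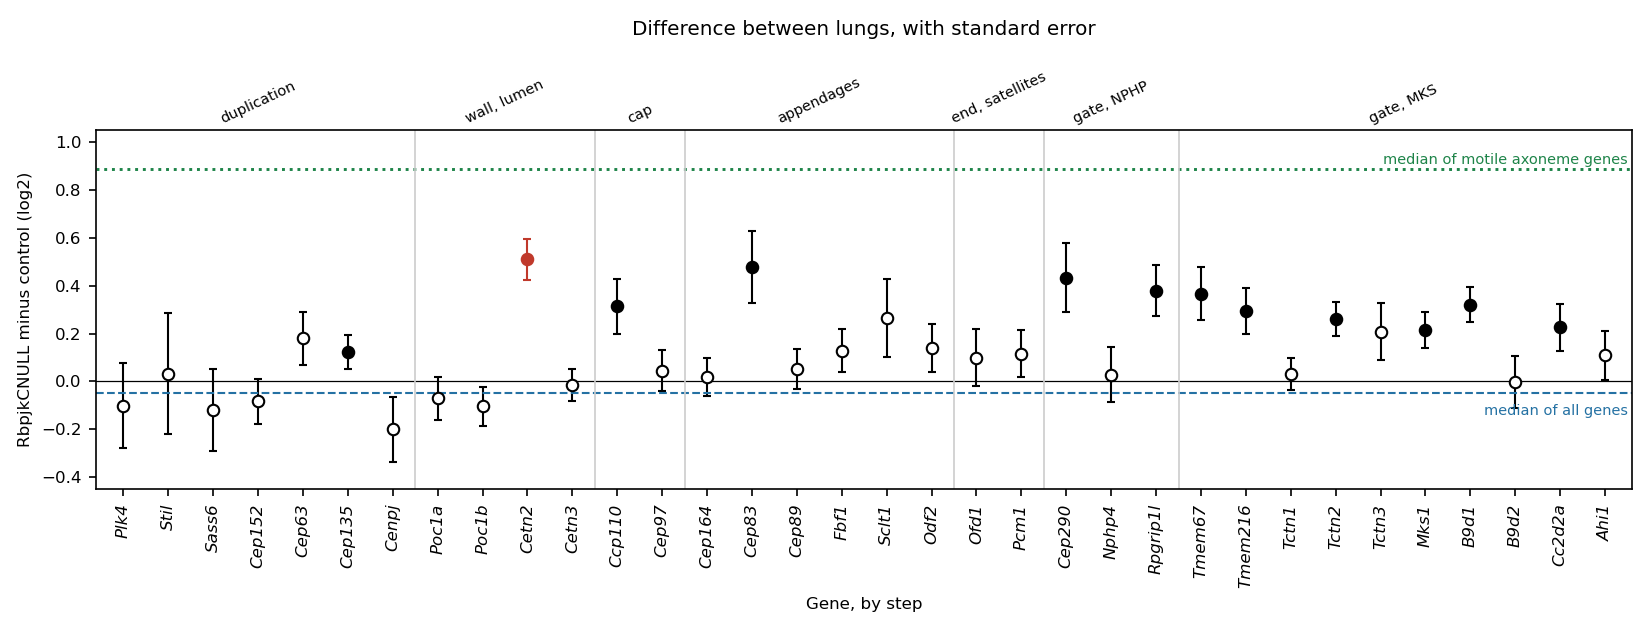
RbpjkCNULL minus control (log2) for each of the 34 genes, with the standard error from limma. Red marks the gene with an adjusted p under 0.05, filled marks are genes whose groups do not overlap and open marks those whose groups do. Dashed and dotted lines are the medians of all genes (-0.05) and of 25 motile axoneme genes (0.89), and 12 of the 13 gate genes at the right lie above 0.

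The ciliary gate genes lay higher in RbpjkCNULL lungs as a group of small differences. Of 13 genes, 12 were above 0, against 6765 of all 21225 genes. For 8 of the 13 all RbpjkCNULL lungs lay above all controls, against 4.95% of all genes. While 0 passed the test, 7 were higher at an unadjusted p under 0.05 from limma, against 3.56% of all genes. Their median log2 fold change was 0.23. The differences of 9 of the 13 lay above the 95th percentile of all genes (0.19), as did those of 0 of the 7 duplication genes. The difference between gate and duplication genes has no test here, because the list was chosen with results of these arrays known.
The median deviation of the gate genes was -0.21, -0.09 and -0.06 in controls against 0.08, 0.13 and 0.21 in RbpjkCNULL lungs, so the groups were apart. Control replicate 1 was the lowest lung for 9 of the 13 genes, and without it their median was 0.21. Control replicate 3, with the low Xist of the RbpjkCNULL lungs, was the highest control, at -0.06. With the Xist level as a covariate the median log2 fold change of the gate genes was 0.18. The part of embryo sex in these values was not tested. The arrays were also split by lower quartile after the values were seen, which left 1 array on a side and no measure of spread there. Within the 3 arrays of a higher lower quartile, 2 of them controls, the median difference was 0.20. Within the other arrays, 1 of them a control, it was 0.25. The axonemal genes were apart between the same lungs, with median deviations of -0.51, -0.44 and -0.34 against 0.34, 0.50 and 0.52. Their summed level on the linear scale was 2427 to 2752 in the control and 4414 to 4849 in the RbpjkCNULL lungs. The part of a larger share of multiciliated cells in the values of the gate genes was not tested.

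On the Nphp side of the gate 0 of 3 genes passed, and the groups did not overlap for Cep290 and Rpgrip1l. Cep290, which links the membrane to the microtubule doublets and is mutated in Joubert syndrome, had values of 5.82, 6.27 and 6.18 in controls against 6.29, 6.67 and 6.60 in RbpjkCNULL lungs. The lowest RbpjkCNULL lung was barely above the highest control, and the difference was 0.43 (standard error 0.14, adjusted p = 0.419). Both lungs numbered 1 were the lowest of their groups. Rpgrip1l, a scaffold of the gate, had values of 6.40, 6.72 and 6.72 against 6.92, 6.98 and 7.08. All RbpjkCNULL lungs lay above the controls, with a difference of 0.38 (0.11, adjusted p = 0.274). Nphp4 overlapped fully, with 6.60, 6.19 and 6.35 in controls against 6.52, 6.34 and 6.37 in RbpjkCNULL lungs (difference 0.03, standard error 0.11, adjusted p = 0.958).

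On the Mks side the differences ran from -0.00201 for B9d2 to 0.37 for Tmem67. For 6 of 10 genes the RbpjkCNULL lungs lay higher without overlap, against 4.95% of all genes. Tmem67, the membrane receptor also called meckelin, had the highest difference of the step, 0.37 (standard error 0.11, adjusted p = 0.358). Its values were 6.84, 7.04 and 7.15 in controls against 7.21, 7.51 and 7.41 in RbpjkCNULL lungs, which were all above the controls. B9d2, one of 3 B9-domain proteins with B9d1 and Mks1, was the lowest with a difference of -0.00201 (0.11, adjusted p = 0.997). It had values of 5.85, 5.56 and 5.73 against 5.89, 5.58 and 5.66, and in both groups replicate 1 was highest.
Its partner B9d1 had the smallest adjusted p among the gate genes. Values of 7.26, 7.22 and 7.20 in the control lungs lay close together and those of the RbpjkCNULL lungs, 7.48, 7.51 and 7.64, were all above them. The difference was 0.32 (0.07, adjusted p = 0.138). Mks1 had 6.38, 6.41 and 6.39 in controls against 6.51, 6.60 and 6.71 in RbpjkCNULL lungs (difference 0.22, standard error 0.08, adjusted p = 0.456). The B9-domain proteins thus included 2 genes without overlap between groups and 1 with overlap.
Of the 3 tectonics, which sit in the same complex, 0 passed and differences between them were not tested. Tctn2 had values of 7.32, 7.39 and 7.47 against 7.64, 7.61 and 7.71, without overlap (difference 0.26, standard error 0.07, adjusted p = 0.269). Tctn3 differed by 0.21 (0.12, adjusted p = 0.687) and Tctn1 by 0.03 (0.07, adjusted p = 0.913), both with overlap, and the interval of Tctn1 ran from -0.13 to 0.19. Among the other gate proteins, the membrane protein Tmem216 differed by 0.30 (0.10, adjusted p = 0.402) and Cc2d2a, which holds the Mks module together, by 0.23 (0.10, adjusted p = 0.601), both without overlap. Ahi1, the Joubert syndrome protein jouberin, differed by 0.11 (0.10, adjusted p = 0.796) and overlapped.

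Promoters were read because the gate genes lay above 0 together. RFX transcription factors, which drive ciliary genes, bind the X-box, a pair of half-sites. RefSeq sequences (GRCm38.p6) from 250 bases before to 50 bases after the start were found for 32 of the 34 genes, the exceptions being Pcm1 and Tmem67, and 5 genes had more than 1 start. The X-box was searched as GTNNCC, then 0 to 3 bases, then NGNAAC, on both strands. It was found for 8 of 12 gate genes (66.7%), for 1 of 7 duplication genes (14.3%), for 11 of 22 axonemal genes (50%) and for 1606 of 27025 genes (5.94%), with each start of a gene counted. By promoter it was found in 5.25% of 32851. The 8 matches of the gate genes are shown with up to 20 bases to each side, the match in capitals, 5′ to 3′ on the strand of the gene.
Tctn1, chr5:122264411-122264444, minus strand: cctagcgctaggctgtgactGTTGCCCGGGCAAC
Tctn3, chr19:40612339-40612391, minus strand: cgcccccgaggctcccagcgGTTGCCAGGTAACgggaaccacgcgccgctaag
Ahi1, chr10:20952548-20952596, plus strand: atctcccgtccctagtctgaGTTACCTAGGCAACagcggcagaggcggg
Mks1, chr11:87853171-87853224, plus strand: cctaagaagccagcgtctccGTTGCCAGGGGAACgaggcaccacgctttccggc
Tctn2, chr5:124598667-124598720, plus strand: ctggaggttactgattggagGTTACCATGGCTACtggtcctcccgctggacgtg
Tmem216, chr19:10555714-10555764, minus strand: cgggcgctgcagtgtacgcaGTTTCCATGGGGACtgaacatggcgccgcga
B9d2, chr7:25680776-25680829, plus strand: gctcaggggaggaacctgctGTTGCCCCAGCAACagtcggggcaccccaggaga
Nphp4, chr4:152477892-152477944, plus strand: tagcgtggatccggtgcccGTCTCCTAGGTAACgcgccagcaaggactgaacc
The matches of Tmem216, Tctn1, B9d2 and Ahi1 lay after the start, between bases 17 and 50, that of Nphp4 belonged to 1 of 3 starts, and those of Tmem216, B9d2 and Ahi1 to 1 of 2 starts each. Matches were also found for 3 genes outside the gate, the cartwheel gene Cep135 and the appendage genes Cep83 and Sclt1, all within 14 bases of the start. They are shown in the same way.
Cep135, chr5:76588668-76588719, plus strand: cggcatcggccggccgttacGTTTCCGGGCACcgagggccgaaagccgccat
Cep83, chr10:94688756-94688809, plus strand: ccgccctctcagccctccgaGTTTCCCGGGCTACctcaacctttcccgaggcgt
Sclt1, chr3:41742485-41742537, minus strand: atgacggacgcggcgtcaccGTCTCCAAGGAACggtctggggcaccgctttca
A match is a run of letters and not a measured site. The pattern was narrow, and a run with A in place of the G in NGNAAC was not counted. The windows of Cetn2 and B9d1 hold such runs, whose share over all genes was not measured. The 8 gate genes with a match had a median log2 fold change of 0.16 (-0.00201 to 0.30, 3 higher without overlap). The 4 without one, Cep290, Rpgrip1l, B9d1 and Cc2d2a, had a median of 0.35 (0.23 to 0.43, 4 higher without overlap). Over all genes 4.95% lay higher without overlap, and the difference between these sets was not tested. The promoters of 2 genes are given whole. That of Mks1 is given because its match lies just before the start. That of Cetn2 is given because this gene rose and its window held no match to the letters searched.
Mks1, chr11:87852965-87853264, plus strand: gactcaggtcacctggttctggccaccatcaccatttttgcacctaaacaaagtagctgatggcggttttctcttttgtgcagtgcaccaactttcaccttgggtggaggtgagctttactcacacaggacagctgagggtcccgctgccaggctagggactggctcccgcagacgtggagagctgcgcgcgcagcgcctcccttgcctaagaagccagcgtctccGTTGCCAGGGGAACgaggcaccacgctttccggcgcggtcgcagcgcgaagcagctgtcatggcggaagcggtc
Cetn2, chrX:72918295-72918594, minus strand: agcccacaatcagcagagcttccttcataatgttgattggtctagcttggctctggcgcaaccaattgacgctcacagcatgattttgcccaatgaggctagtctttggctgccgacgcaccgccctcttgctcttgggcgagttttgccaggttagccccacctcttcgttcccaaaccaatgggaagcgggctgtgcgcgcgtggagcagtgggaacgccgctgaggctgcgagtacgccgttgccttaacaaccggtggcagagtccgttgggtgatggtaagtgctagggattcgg
Elements of cell cycle genes were searched in the same windows. The E2F site TTTNGCGC was found for 1 of 7 duplication genes, Cep63, for 0 of 12 gate genes, for 5 of 24 S phase and mitosis genes and for 1.57% of all genes. The CHR element TTTGAA was found for 1 of 7 duplication genes, Sass6, for 3 of 12 gate genes, for 12 of 24 S phase and mitosis genes and for 20.2% of all genes. Matches of different motifs did not overlap in the promoters of the 34 genes.

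**Figure D4:**
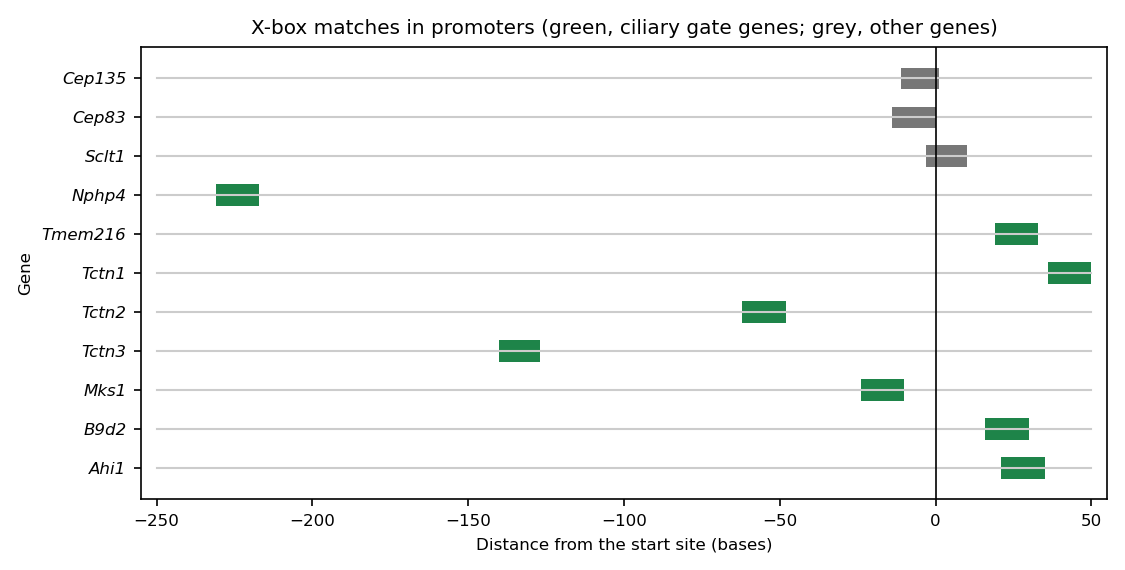
Position of each X-box match relative to the start site (bases, start at 0) in the promoters of 11 genes, each grey line being the window read from 250 bases before to 50 bases after the start. Bars are drawn to the length of the match, green for 8 gate genes and grey for 3 other genes. Most matches lie close to the start, and those of Nphp4 and Tctn3 lie farthest before it.

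Further genes of the same structures were read from lists drawn up by function. Of 37 further centriole and centrosome genes, 2 rose and 0 fell, against 1.16% and 0.113% of all genes. Their median log2 fold change was 0.04. Cetn4, a centrin of ciliated cells, had values of 8.58, 8.69 and 8.77 in controls against 9.36, 9.50 and 9.31 in RbpjkCNULL lungs. The groups were well apart and it rose by 0.71 (standard error 0.08, 1.64-fold, adjusted p = 0.00711 from limma). Bbof1, which keeps basal bodies aligned in multiciliated cells, rose by 0.75 (0.10, adjusted p = 0.0166), from 5.52, 5.74 and 5.72 to 6.22, 6.52 and 6.47.
Of 17 further transition zone genes measured, 1 rose and 0 fell, against 1.16% and 0.113% of all genes, with a median of 0.08. It was Cibar2, a partner of the Chibby protein at the basal bodies of multiciliated cells, which rose by 0.63 (0.09, adjusted p = 0.0162). Its values were 4.36, 4.44 and 4.56 in controls against 5.15, 4.96 and 5.15 in RbpjkCNULL lungs. This is a low level, with the mean of Cibar2 at percentile 21.8 of all genes. Cetn4, Bbof1 and Cibar2 had larger differences than any gate gene. They are named because they passed the test, which 0 gate genes did.
Among 10 genes of centriole amplification and its control in multiciliated cells, 1 rose and 0 fell, against 1.16% and 0.113% of all genes. The groups did not overlap for 5 that were higher in RbpjkCNULL lungs, Foxj1, Myb, Rfx2, Rfx3 and Trp73, against 4.95% of all genes. They also did not overlap for 1 that was lower, Gmnc (difference -0.33, standard error 0.10, adjusted p = 0.379), against 9.28% of all genes. The level of Gmnc was low, with its mean at percentile 15.7 of all genes. The X-box factors Rfx2 and Rfx3 differed by 0.23 (0.06, adjusted p = 0.287) and 0.37 (0.08, adjusted p = 0.107). Foxj1, the regulator of motile cilia, rose by 0.78 (0.13, adjusted p = 0.0333), from 6.86, 7.26 and 7.35 to 7.98, 7.89 and 7.95. Deup1, which builds the deuterosome, had 6.60, 6.94 and 6.82 in controls against 6.68, 7.31 and 7.46 in RbpjkCNULL lungs, where replicate 1 lay within the range of the controls (difference 0.36, standard error 0.20, adjusted p = 0.682). Ccno, a cyclin needed for this amplification, differed by 0.05 (0.17, adjusted p = 0.944), and Mcidas, which switches the programme on, by -0.20 (0.10, adjusted p = 0.664). The calls of Foxj1, Bbof1 and Cibar2 also rested on few lungs. That of Foxj1 was lost without control replicate 2 or any 1 of the RbpjkCNULL lungs (adjusted p = 0.0528 to 0.157 from limma). That of Bbof1 was lost without control replicate 1 or 3 or RbpjkCNULL replicate 2 or 3 (adjusted p = 0.0577 to 0.098), and that of Cibar2 without control replicate 1 or 2 or RbpjkCNULL replicate 1 or 3 (adjusted p = 0.0515 to 0.0976). Cetn4 passed with any 1 lung left out. For comparison, the assembly factor Lrrc6 and the axonemal genes Spef2, Rsph4a and Cfap44 rose by 1.32, 1.29, 1.24 and 1.15 (adjusted p = 0.00121 to 0.0053 from limma).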

How the data were processed

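RNA of each whole lung was amplified, labelled with biotin and hybridised by the study. The deposited table holds log2 expression, 1 value per Entrez Gene and lung, which the authors computed under R 2.12.0 by RMA, a method that corrects background, equalises the distributions of the arrays and summarises probes. The genome build is not given in the sources used here. No further scaling or filter was applied. Quantile normalization makes levels relative to the other genes of an array. Symbols came from the platform table, in which 20239 of 21225 genes had 1 symbol and 986 had none and stayed unnamed. Tests used limma 3.58.1 in R 4.3.3 (lmFit, eBayes without trend, prior of 3.48 degrees of freedom) and were tried on simulated arrays. Precision is limited by the 3 lungs per group. The members, lists and alternatives were chosen with earlier results of these data known. Values by lung are given for members that passed, for the highest and lowest member of each step, for Plk4, Stil and Sass6, and for some other members chosen after their values were seen. From other lists up to 4 genes that passed, or the 2 largest differences, are named, with Rbpj, Xist, Foxj1, Deup1, Ccno and Mcidas always. Markers of neuroendocrine (7 measured), basal (4), alveolar (10), mesenchymal, endothelial and blood (11) and all epithelial cells (6) had 0 genes that passed. Promoters are RefSeq sequences, and 1316 of 1316 overlapping pairs of opposite strand matched as reverse complements. Alternatives covered the test, scaling, filters, covariates, a replicate block and leaving out each lung.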

Additional observations from a re-analysis of the deposited data

How the results depend on the processing

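Of the 34 genes, 0 were lower in every setting tried, whereas the single call, Cetn2, depended on the setting. The methods' t-test called 8 genes higher and 0 lower after Benjamini-Hochberg adjustment (734 and 1035 at an unadjusted p under 0.05). It called 0 of the 34 higher (7 unadjusted). With the Xist level as a covariate limma called 0 genes higher and 0 lower (376 and 1042 unadjusted) and 0 of the 34 higher (2 unadjusted). Without both arrays numbered 1, 160 genes were higher and 0 of the 34 (12 unadjusted). Lower genes numbered 49 with array weights and 62 with the lower quartile as a covariate, against 24. The filter to genes above the median level kept 27 of the 34, of which 2 were higher, Cetn2 and B9d1 (adjusted p = 0.0481). Leaving out 1 lung gave 128 to 213 higher and 11 to 36 lower genes and 0 to 1 of the 34 higher. The low ends for higher genes were without RbpjkCNULL replicate 2 (128) and 3 (137), and for lower genes without RbpjkCNULL replicate 2 or 3 (11 each) and control replicate 3 (13).

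Same-numbered lungs had deviations correlated at 0.491, 0.308 and -0.0872, and 3 of 6 arrays correlated best with their own number. These values do not decide whether the replicate numbers pair the lungs. With the replicate numbers as a block 273 genes were higher and 31 lower, with 2 of the 34 higher, Cetn2 and Cep290 (adjusted p = 0.0431).

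The median of the gate genes kept its sign in every setting (0.17 to 0.27). Counts without overlap moved with the scaling. Of the 13 gate genes, 8 lay higher without overlap as deposited, 9 after median centring and 7 after a second quantile normalization. The share of all genes was 4.95%, 6.31% and 7.16% in the same order. The median difference over all genes was -0.0502, -0.0321 and -0.0144. The median of the duplication genes did not keep its sign. It was -0.321 with the lower quartile as a covariate, 0.00995 with array weights and 0.00143 without both arrays numbered 1. The filter to genes above the median level kept 5 of the 7 duplication genes, whose median was 0.0325. When 1 lung was left out, the median of the 7 ran from -0.16 to 0.0967. Uncalled differences near 0 changed sign. With array weights Plk4 was at 0.00995 and Tctn1 at -0.00355, and without both arrays numbered 1 they were at 0.00143 and -0.0144. Median centring put Cetn3 at 0.00287 and B9d2 at 0.0161, and a second quantile normalization put B9d2 at 0.0693. With the Xist covariate Poc1a was at 0.0144, Cep97 at -0.0591, Cep164 at -0.0973 and Tctn1 at -0.0287. With the lower quartile covariate Stil was at -0.321, Cep97 at -0.00571, Cep89 at -0.0157, Ofd1 at -0.0604, B9d2 at 0.139 and Ccno at -0.133. Leaving out 1 lung gave -0.142 to 0.333 for Stil, -0.0179 to 0.0888 for Cep97, -0.0918 to 0.065 for B9d2, -0.0512 to 0.0119 for Cetn3, -0.0249 to 0.0668 for Cep164 and -0.0679 to 0.138 for Nphp4. It gave -0.217 to 0.0967 for Plk4, -0.237 to 0.0726 for Sass6, -0.16 to 0.00514 for Cep152 and -0.117 to 0.227 for Ccno. The upper ends of Plk4, Sass6 and Cep152 were those without RbpjkCNULL replicate 1. With the lower quartile covariate Mki67 passed, at -0.734 (adjusted p = 0.0444 from limma). The calls of Foxj1, Bbof1, Cetn4, Cibar2, Lrrc6, Spef2 and Cfap44 were lost by the methods' t-test (adjusted p = 0.0662 to 0.296), and these and that of Rsph4a with the Xist covariate (adjusted p = 0.102 to 0.626), with their direction kept. The cause of these changes was not tested. Signal over background is not given per array in the deposited table.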
